A study of Homo sapiens with 9 samples.

Results

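The genes described here are the 4 minor spliceosome snRNA genes RNU11, RNU12, RNU4ATAC and RNU6ATAC, which encode the U11, U12, U4atac and U6atac snRNAs. They were chosen by name and by a measured value, the high rank of RNU12 in the SLBP libraries, and every peak that overlapped 1 of them on its own strand was taken from all 54 deposited libraries. They are 4 of the 21389 annotated genes with a peak in any library. All SLBP values are therefore given as a description with no test.

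The libraries come from antibody-barcode eCLIP (ABC). In this method RNA is crosslinked to protein by UV light, each RNA-binding protein (RBP) is immunoprecipitated with an antibody that carries a DNA barcode, and the barcode is ligated to the bound RNA, so that several RBPs can be read from 1 tube. The 10plex pools hold RBFOX2, PUM2, DDX3, FAM120A, ZC3H11A, LIN28B, SF3B4, EIF3G, PRPF8 and IGF2BP2, and were made 3 times in K562, a human leukemia cell line, and 2 times in HEK293, a human embryonic kidney cell line that the titles call HEK293T. The singleplex libraries are 2 of RBFOX2 in HEK293T and 2 of SLBP in K562. The labels name no genetic change and no treatment other than the crosslinking. Nothing says whether the pools came from separate cultures, so the spread between pools may be technical. The p-values of the main tests come from exchanging RBP labels within pools. The labels were exchanged in each pool on its own, so any RBP that leads in every pool can reach the smallest p. The p-values therefore do not set a difference against lasting differences between RBPs.

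The labels of the HEK293 pools name K562 in 1 field, and the third K562 pool is written as K563, so the lines were looked at through marker genes. The 5 K562 markers GATA1, TAL1, HBG1, HBG2 and HBZ all had peaks in each K562 pool and 0 of 5 had any in the HEK293 pools. Of the 5 HEK293 markers, 4 (NEFM, NEFL, MAP1B and ZIC2) had peaks in both HEK293 pools, SOX11 had none in any pool, and 3 had peaks in the K562 pools, among them MAP1B in 6 to 8 libraries of each pool. The titles were followed. Summed reads in peaks ran from 13351 to 2203218 in the 10plex K562 libraries and from 25594 to 4440676 in the 10plex HEK293 libraries, with PUM2 the smallest. The RBFOX2 singleplex libraries held 2185327 and 4414702, and the SLBP libraries 19751 and 86063.

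Most human introns are removed by the major spliceosome, while a small class, the U12-type introns, is removed by the minor spliceosome. U11 pairs with the 5′ splice site and U12 with the branch site of these introns, and both enter as a U11/U12 di-snRNP. U4atac and U6atac arrive with U5, the only snRNA that both spliceosomes share, and U6atac then takes the place of U11 at the 5′ splice site. SF3B4 is a subunit of SF3b, a protein complex of both the U2 snRNP and the U11/U12 di-snRNP, and PRPF8 is the large core protein of the U5 snRNP. SLBP binds the stem-loop of histone mRNAs, and the other RBPs of the pools are known mainly for binding mRNAs and their precursors.

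RNU11 (ENSG00000274978.1) is 134 bases long and lies at chr1:28648600-28648733 on the plus strand of GRCh38, within the long noncoding RNA gene ENSG00000270103 of the same strand. RNU12 (ENSG00000276027.1) is 150 bases long and lies at chr22:42615244-42615393 on the plus strand. It overlaps the long noncoding RNA gene ENSG00000270022 on the same strand and the protein-coding gene ENSG00000289517 on the opposite strand. RNU4ATAC (ENSG00000264229.1) is 127 bases long and lies at chr2:121530881-121531007 on the plus strand, overlapping CLASP1-AS1 on the same strand and CLASP1 on the opposite strand. RNU6ATAC (ENSG00000221676.1) is 126 bases long and lies at chr9:134164439-134164564 on the minus strand, and no other annotated gene overlaps it. A read on RNU11, RNU12 or RNU4ATAC cannot be told apart from a read of the long noncoding RNA gene of the same strand.

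The 4 RNA sequences are shown because the deepest peaks overlap on a stretch of each RNA in most libraries. They were read 5′ to 3′ from GRCh38 and are written with T for U, with capitals for the bases that lay in the deepest peak of over 50% of the 50 10plex libraries.
RNU11: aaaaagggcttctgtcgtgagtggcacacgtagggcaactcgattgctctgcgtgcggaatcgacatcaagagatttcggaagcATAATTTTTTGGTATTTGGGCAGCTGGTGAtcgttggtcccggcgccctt
RNU12: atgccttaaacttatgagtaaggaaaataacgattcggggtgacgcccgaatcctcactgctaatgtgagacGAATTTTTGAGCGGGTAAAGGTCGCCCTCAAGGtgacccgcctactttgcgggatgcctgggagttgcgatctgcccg
RNU4ATAC: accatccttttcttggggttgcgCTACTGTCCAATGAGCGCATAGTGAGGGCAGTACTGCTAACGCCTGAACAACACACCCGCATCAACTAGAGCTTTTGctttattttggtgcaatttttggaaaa
RNU6ATAC: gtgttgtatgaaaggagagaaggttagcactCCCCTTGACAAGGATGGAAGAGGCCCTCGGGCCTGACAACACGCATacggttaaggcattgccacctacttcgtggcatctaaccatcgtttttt

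The capitals cover bases 85 to 114 of U11, 73 to 105 of U12, 24 to 100 of U4atac and 32 to 77 of U6atac, counted from the first base of each RNA. On U11 the lines differed, and the same rule gave bases 85 to 116 in K562 and 66 to 92 in HEK293. Base 88 of U11 lay in the deepest peak of 44 of the 50 libraries, base 92 of U12 in 49, base 64 of U4atac in 46 and base 57 of U6atac in all 50. The letters TTTTTG, which occur in the binding site of the Sm protein ring, were found at bases 90 to 95 of U11 and 76 to 81 of U12, inside the capitals, and at bases 117 to 122 of U4atac, 3′ of them. They were not found in U6atac. The letters GTAAGGA, the stretch of U12 that pairs with the branch site, were found at bases 18 to 24, and AAGGAGA, the stretch of U6atac that pairs with the 5′ splice site, at bases 12 to 18, both 5′ of the capitals. Both strands were searched and all of these matches lay on the strand of the RNA. Of the 1577 annotated snRNA transcripts of 100 to 200 bases, 9.89% hold TTTTTG, 1.52% hold GTAAGGA and 1.97% hold AAGGAGA.

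The level of a gene in a library is given as its read share, the reads in the deepest peak on the gene per 10000 reads summed over all peaks of that library. The 4 RNAs did not reach like levels. In 10plex K562 libraries the share ran from 5.292 to 440.3 for RNU12 and from 3.731 to 120.8 for RNU11, against 0.5946 to 25.06 for RNU4ATAC and 0.5038 to 15.2 for RNU6ATAC. These are shares of reads and not molecules of each RNA. The share is taken of reads in called peaks only, and shallow libraries held few peaks. In K562 the PUM2 libraries held 938 to 1535 peaks and the PRPF8 libraries 50980 to 63944. Shares of shallow libraries such as those of PUM2 and EIF3G may therefore be too high beside those of deep libraries, which was not tested. A second measure is the log2 fold over the complement control (CC), the reads of the other 9 barcodes of the same pool in the same peak, each divided by its usable reads. The CC of an RBP holds the reads of the other RBPs, so that a high value of 1 RBP lowers the values of the other 9.

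Each of the 30 K562 and 20 HEK293 10plex libraries held a peak on every 1 of the 4 genes. A peak is called enriched here when P was below 0.001 and the fold over the external background, RNA-seq by the methods, was above 8. By this rule 72 of 72 peaks on RNU11, 139 of 139 on RNU12, 85 of 87 on RNU4ATAC and 34 of 34 on RNU6ATAC were enriched in K562, against 49.9% of all peaks of those libraries. In HEK293 all 66, 89, 41 and 21 peaks on RNU11, RNU12, RNU4ATAC and RNU6ATAC were enriched, against 34.7% of all peaks. All 22 peaks on the 4 genes in the RBFOX2 singleplex libraries were enriched, against 10% of all peaks. Since every RBP reached it, this rule did not tell the RBPs apart, and the comparisons that follow use the read share and the CC.

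The first question was whether SF3B4, the SF3b subunit, stood apart on the 2 RNAs of the U11/U12 di-snRNP. On RNU12 it had the highest level of any RBP in all 5 pools. The SF3B4 share was 196.1, 121 and 440.3 reads per 10000 in K562 replicates 1, 2 and 3 (252.5 ± 166.9, SD, n = 3), from 5359, 6022 and 8187 reads. The 8 RBPs that are neither SF3B4 nor PRPF8 lay between 5.292 and 146.2, with a mean of 56.8. SF3B4 was highest within each of the 3 pools, although its replicate 2 lay below the 146.2 of EIF3G in replicate 1. The difference of the means was 195.7 (exact permutation of the RBP labels within pools, two-sided, p = 0.00137, the smallest p that the 729 relabellings can give). Replicate 3 carried much of its size, and without it the difference was 102.1 (same exact permutation test, p = 0.0123, again the smallest possible).

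In HEK293 the SF3B4 share on RNU12 was 216.9 and 263.6 (240.3 ± 32.99, SD, n = 2), from 5779 and 12680 reads. The other 8 RBPs lay between 4.872 and 67.03, so that the groups did not overlap. The difference was 209.3 (exact permutation within pools, two-sided, p = 0.0123, the smallest that 81 relabellings can give).

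**Figure D1:**
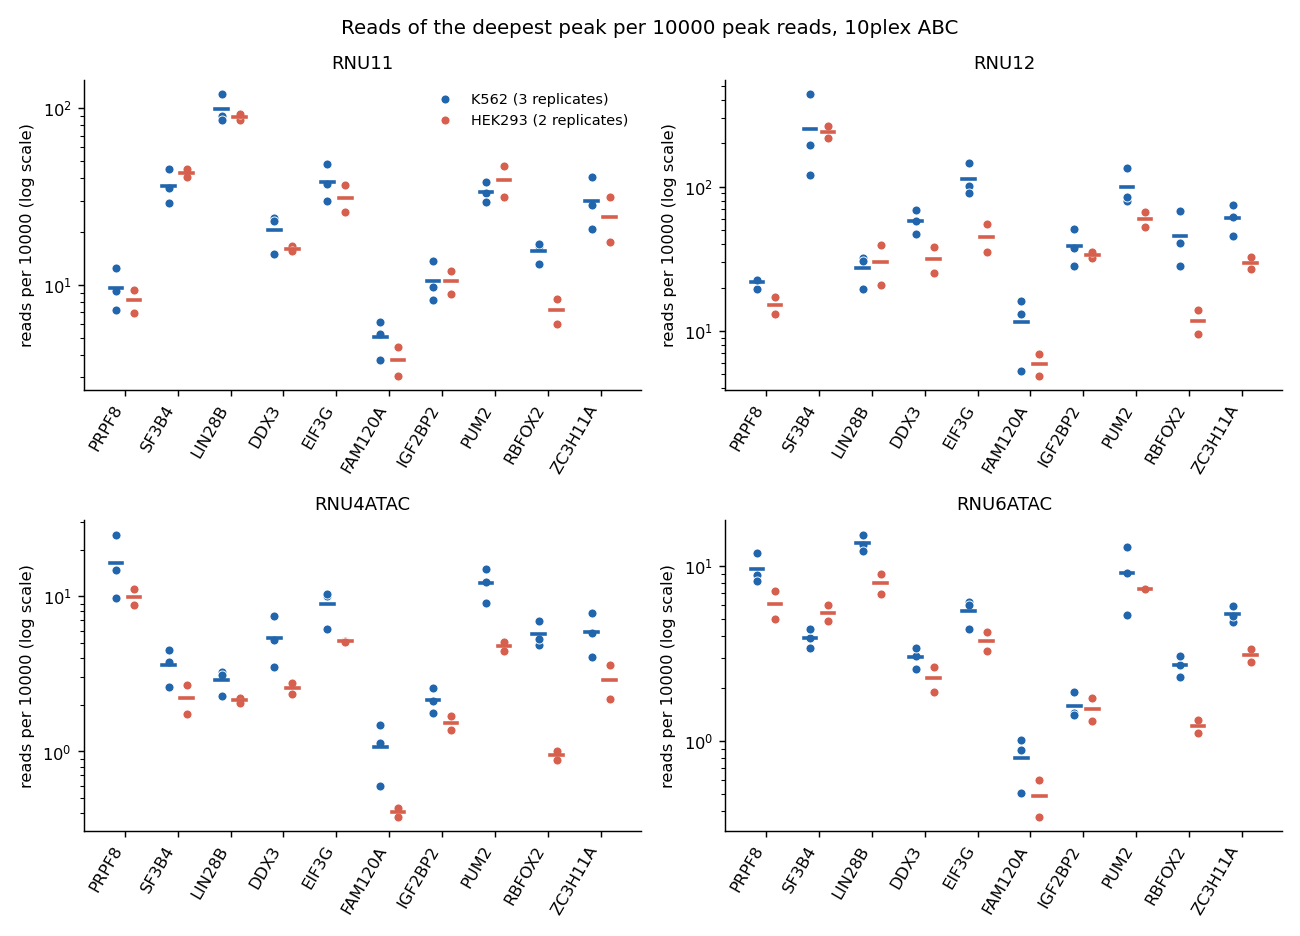
Read share of each minor snRNA gene (reads of its deepest peak per 10000 reads in peaks, log axis) in every 10plex library, by RBP, for the pools of K562 and HEK293. Each point is 1 library. SF3B4 lies at 121 to 440.3 on RNU12, and PRPF8 at 8.782 to 25.06 on RNU4ATAC.

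The log2 fold over the CC also put SF3B4 first on RNU12, but the order behind it differed. In HEK293 the next means were 0.31 for IGF2BP2 and 0.14 for DDX3. Tests on this scale, here and below, were chosen after seeing the data. SF3B4 on RNU12 had 2.82, 2.91 and 3.67 in K562 (mean 3.13) and 3.62 and 3.37 in HEK293 (mean 3.50), while the 8 other RBPs lay between -2.63 and 0.96 in K562 and between -1.75 and 0.37 in HEK293. No other library overlapped those of SF3B4 in either line (exact permutation within pools, two-sided, p = 0.00137 in K562 and p = 0.0123 in HEK293, the smallest possible in each). Of the SF3B4 peaks on RNU12, 23 of 28 in K562 and 15 of 15 in HEK293 passed P below 0.001 and a fold above 8 over the CC, against 30.8% and 24.3% of all SF3B4 peaks. Counted among these peaks are the 2 with uncertain reads that are left out of the description along the RNAs. RNU12 ranked first of all genes in the 5 SF3B4 libraries, when genes were ordered by P and then by fold over the external background with mitochondrial genes and snoRNAs left out. In K562 this rank did not set SF3B4 apart. RNU12 was also first in all DDX3 and EIF3G libraries there, and ranked 1 to 2 for IGF2BP2, PUM2 and RBFOX2. In HEK293 the other RBPs had RNU12 at ranks 2 to 11.

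Among the other RBPs, the order on RNU12 in K562 was EIF3G (112.8 ± 29.43 reads per 10000, SD, n = 3), PUM2 (99.65 ± 29.91), ZC3H11A, DDX3, RBFOX2, IGF2BP2, LIN28B (27.36 ± 6.904), PRPF8 (21.68 ± 1.792) and FAM120A (11.52 ± 5.593). Of these neighbours, only PUM2 and ZC3H11A and then PRPF8 and FAM120A had ranges that did not overlap. The high shares of EIF3G and PUM2, both translation or mRNA decay factors, rest on few reads, 412 to 477 and 144 to 179. Their mean log2 fold over the CC was 0.64 and 0.17. In HEK293 SF3B4 was followed by PUM2 (59.89 ± 10.1, n = 2) and EIF3G (45.01 ± 14.06), whose ranges overlap, and FAM120A was again lowest at 5.917 ± 1.477.

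PRPF8 on RNU12 had a share of 21.68 ± 1.792 in K562 and 15.21 ± 2.97 in HEK293. Its differences from the other 8 RBPs of -35.11 and -15.77 did not pass the test (exact permutation within pools, two-sided, p = 0.107 and p = 0.272). On RNU12 the mean log2 fold over the CC of PRPF8 was -0.86 in K562 and -0.41 in HEK293. The SF3B4 and PRPF8 tests share the same 8 RBPs as the comparison group.

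RNU11, the partner of U12 in the di-snRNP, gave another order. The SF3B4 share was 45.13, 35.42 and 28.88 in K562 (36.47 ± 8.176, SD, n = 3) and 45.08 and 40.91 in HEK293 (43 ± 2.951, n = 2). The 8 other RBPs lay between 3.731 and 120.8 in K562 and between 3.036 and 92.3 in HEK293, on either side of SF3B4. The differences of 4.891 and 15.37 did not pass the test (exact permutation within pools, two-sided, p = 0.818 and p = 0.469). All 5 SF3B4 libraries were above the CC on RNU11, at 1.81, 1.51 and 1.24 in K562 and 1.60 and 1.77 in HEK293, but on this scale too the difference missed the threshold (p = 0.085 and p = 0.136, same exact test). Only LIN28B was higher on this scale. The next RBP by its mean, EIF3G, lay at 0.28 to 0.65 in K562 and 0.51 to 0.62 in HEK293, without overlap with SF3B4. The highest single library behind SF3B4 in K562 was ZC3H11A replicate 3, at 0.73.

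LIN28B, an RBP known for blocking the maturation of let-7 microRNAs, had the highest RNU11 level in all 5 pools. It was singled out after its values were seen, so no test is given. The LIN28B share on RNU11 was 120.8, 90.75 and 85.88 in K562 (99.15 ± 18.92, SD, n = 3), from 1770, 2163 and 1266 reads, and 85.4 and 92.3 in HEK293 (88.85 ± 4.882, n = 2). The next library of any other RBP was EIF3G at 48.22 in K562 and PUM2 at 47.28 in HEK293, so that LIN28B did not overlap the rest. Its log2 fold over the CC was 3.02, 2.92 and 2.75 in K562 and 2.67 and 2.98 in HEK293. RNU11 was the first gene by rank in all 5 LIN28B libraries. Of the LIN28B peaks on RNU11, 6 of 14 in K562 and 5 of 11 in HEK293 passed P below 0.001 and a fold above 8 over the CC, against 37.5% and 27.7% of all LIN28B peaks, which in K562 is near the background.

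PRPF8 was among the lowest RBPs on RNU11. Its share was 9.623 ± 2.662 in K562 and 8.162 ± 1.728 in HEK293, with differences of -21.96 and -19.46 that did not pass the test (exact permutation within pools, two-sided, p = 0.171 and p = 0.346). On RNU11 only FAM120A in K562, and RBFOX2 and FAM120A in HEK293, had lower mean shares, and RBFOX2 overlapped PRPF8.

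**Figure D2:**
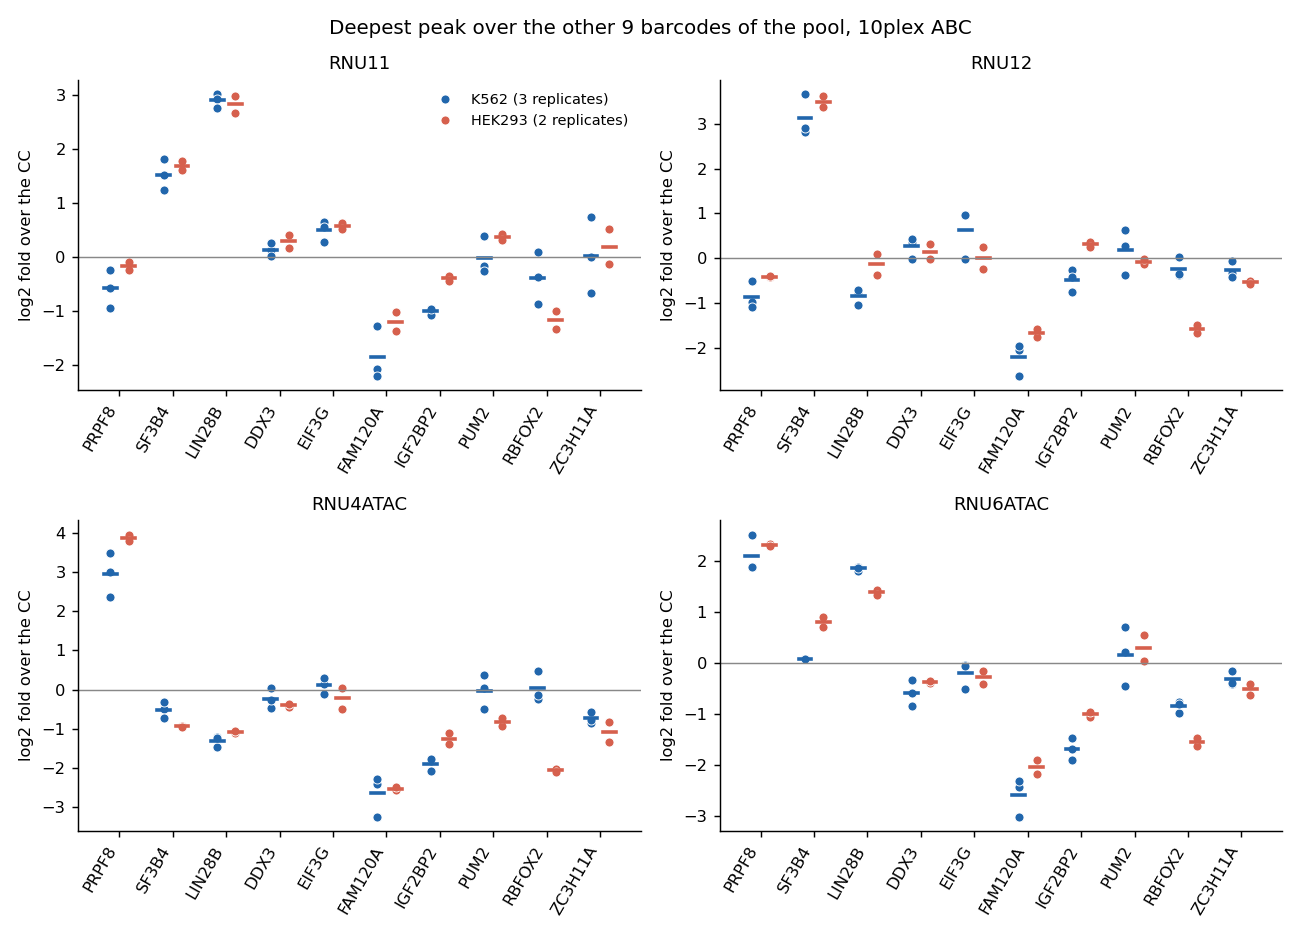
Log2 fold over the CC of the deepest peak on each minor snRNA gene, by RBP, for the 10plex libraries of K562 and HEK293. Points are libraries and bars are means. SF3B4 stands alone on RNU12 (2.82 to 3.67), LIN28B leads on RNU11 (2.67 to 3.02), PRPF8 stands alone on RNU4ATAC (2.36 to 3.96), and PRPF8 and LIN28B are both above the others on RNU6ATAC.

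The second question was whether PRPF8, the U5 protein, stood apart on the 2 RNAs that arrive with U5. RNU4ATAC reached PRPF8 shares of 14.77, 25.06 and 9.702 reads per 10000 in K562 (16.51 ± 7.825, SD, n = 3), from 752, 1491 and 721 reads. The other 8 RBPs lay between 0.5946 and 14.98, with a mean of 5.516. By share PRPF8 was the highest RBP in 1 of the 3 pools. The libraries above it were of PUM2, whose shares rest on 17 to 21 reads and may be too high, as few peaks were called there. The difference was 11 (exact permutation within pools, two-sided, p = 0.00549), and 6.281 without replicate 2 (p = 0.0494). In HEK293 the PRPF8 share on RNU4ATAC was 11.12 and 8.782 (9.951 ± 1.654, n = 2), from 1377 and 1955 reads, above all other libraries, which lay between 0.3797 and 5.182. The difference was 7.407 (same exact test, p = 0.0123, the smallest possible).

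The log2 fold over the CC separated PRPF8 on RNU4ATAC in every pool. It was 2.36, 3.48 and 2.99 in K562 (mean 2.94) and 3.96 and 3.79 in HEK293 (mean 3.88). The 8 other RBPs lay between -3.25 and 0.47 in K562 and between -2.58 and 0.05 in HEK293, so that there was no overlap (exact permutation within pools, two-sided, p = 0.00137 and p = 0.0123). All 17 PRPF8 peaks on RNU4ATAC in K562 lay above the CC, but only 3 of 17 passed P below 0.001 and a fold above 8 over it, against 22.5% of all PRPF8 peaks, which is near the background. In HEK293 all 7 of 7 passed, against 17.5% of all PRPF8 peaks. RNU4ATAC ranked 4 to 10 among the 9166 to 10246 genes of the PRPF8 libraries in K562 and 7 to 8 in HEK293, compared with 23 to 37 and 42 to 48 in the SF3B4 libraries.

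SF3B4 on RNU4ATAC was in the middle of the RBPs, with a share of 3.619 ± 0.9633 in K562 and 2.206 ± 0.6498 in HEK293. The differences of -1.897 and -0.3383 did not pass the test (exact permutation within pools, two-sided, p = 0.417 and p = 0.827). Its mean log2 fold over the CC was -0.52 and -0.95. In K562 each RBP from PRPF8 down to IGF2BP2 overlapped its neighbour in RNU4ATAC share, and FAM120A was lowest at 1.076 ± 0.4519. In HEK293 PRPF8, the pair of EIF3G and PUM2, a group from ZC3H11A to LIN28B, IGF2BP2, RBFOX2 and FAM120A were separate from each other.

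RNU6ATAC had shares close to those of RNU4ATAC, and PRPF8 and LIN28B had the highest log2 folds over the CC on it in all 5 pools. The PRPF8 share was 8.919, 11.9 and 8.289 in K562 (9.702 ± 1.929, SD, n = 3) and 7.236 and 5.018 in HEK293 (6.127 ± 1.569, n = 2). The other 8 RBPs lay between 0.5038 and 15.2 and between 0.3693 and 9.011. The differences of 4.501 and 2.654 in share did not pass the test (exact permutation within pools, two-sided, p = 0.0947 and p = 0.222). The libraries above PRPF8 in their pools were of LIN28B, at 13.51 ± 1.543 in K562 and 7.979 ± 1.46 in HEK293, and of PUM2, at 22, 19 and 35 reads in K562 replicate 3 and HEK293 replicates 1 and 2.

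On the scale of the CC, PRPF8 on RNU6ATAC had 1.89, 2.52 and 1.89 in K562 and 2.33 and 2.29 in HEK293. The other 8 RBPs reached 1.89 in K562, where LIN28B touched the range of PRPF8, and 1.43 in HEK293. The difference in log2 fold was 2.62 in K562 and 2.82 in HEK293 and passed the test in both (exact permutation within pools, two-sided, p = 0.00274 and p = 0.0123). All 6 PRPF8 peaks on RNU6ATAC in K562 and both in HEK293 lay above the CC, but 0 of 6 and 0 of 2 reached a fold of 8. SF3B4 on RNU6ATAC had a share of 3.877 ± 0.4804 in K562 and 5.425 ± 0.822 in HEK293, with differences of -1.325 and 1.952 that did not pass the test (p = 0.679 and p = 0.383, same exact test). The 16 p-values of the read share were not adjusted over the genes, and neither were those of the log2 fold over the CC.

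FAM120A, an RBP of mRNA 3′ UTRs with the most reads summed in peaks in each pool, lay below the CC on all 4 genes in all 5 pools, with means from -2.66 on RNU4ATAC to -1.86 on RNU11 in K562. RBFOX2 in HEK293 was below the CC on all 4 genes too, at means of -1.17 on RNU11, -1.58 on RNU12, -2.07 on RNU4ATAC and -1.54 on RNU6ATAC. In K562 the RBFOX2 means were nearer to 0, at -0.38, -0.23, 0.03 and -0.85 in the same order. The difference between the lines was not tested. In HEK293 replicate 2 the RBFOX2 reads on RNU11 and RNU12 lie at the cap of P as the lowest whole numbers and may be too low.

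The place of the deepest peak on each RNA is given as a description. On U11 the middle of the deepest peak was at base 101 for PRPF8 and SF3B4 (medians of 5 libraries), while for LIN28B it was at base 73 to 76, and bases 65 to 81, 5′ of the capitals in the sequence, lay in most of the deepest LIN28B peaks. The other RBPs were not all 3′ of it, since in HEK293 replicate 2 the deepest PRPF8 and SF3B4 peaks lay at bases 66 to 86 and 66 to 91. Over all 10 RBPs the median middle on U11 was base 100.5 in the K562 pools and 79.75 in the HEK293 pools. With the CLIPper peak of lowest p in place of the deepest merged peak, the medians were 76 for PRPF8, 77.5 for SF3B4 and 74.5 for LIN28B, so that the contrast was not seen. Over the K562 pools the LIN28B peaks with their middle before base 85 had log2 folds over the CC of 2.69 to 3.27, and those with their middle at bases 85 to 114 had 2.14 to 2.70.

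On U12 the deepest SF3B4 peaks overlapped the capitals and began 5′ of them, with a median middle at base 83.5. In K562 the median fold of SF3B4 over the CC was higher on both sides of the capitals than on them, with overlapping ranges after them. In K562 the 13 SF3B4 peaks with their middle before base 73 had log2 folds over the CC of 3.82 to 5.07 (median 4.55), the 4 at bases 73 to 105 had 2.82 to 3.67 (median 2.90), and the 10 after base 105 had 2.80 to 4.73 (median 4.40). In HEK293, with 1 peak on the capitals, the ranges overlapped, and the same stretches had 3.37 to 5.10 (7 peaks), 3.62 (1 peak) and 3.27 to 4.06 (6 peaks). Over all 50 libraries the deepest peaks on U12 had their middle at base 91.75 (median), inside the capitals. The letters that pair with the branch site lie in the first of these stretches.

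On U4atac the PRPF8 peaks were above the CC over the 5′ end and the middle and close to it at the 3′ end in K562. Peaks with their middle before base 24 had log2 folds of 2.74 to 4.25 (median 2.97, 4 peaks), those at bases 24 to 100 had 2.24 to 3.48 (median 2.94, 8 peaks), and those after base 100 had 0.30 to 1.15 (median 0.40, 5 peaks). In HEK293 there was no PRPF8 peak after base 100, and the folds before it were 3.52 to 4.11. On U6atac the deepest peaks of PRPF8 and SF3B4 both had a median middle at base 52.5, within the shared stretch. Touching peaks can share reads, so these positions are a description.

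**Figure D3:**
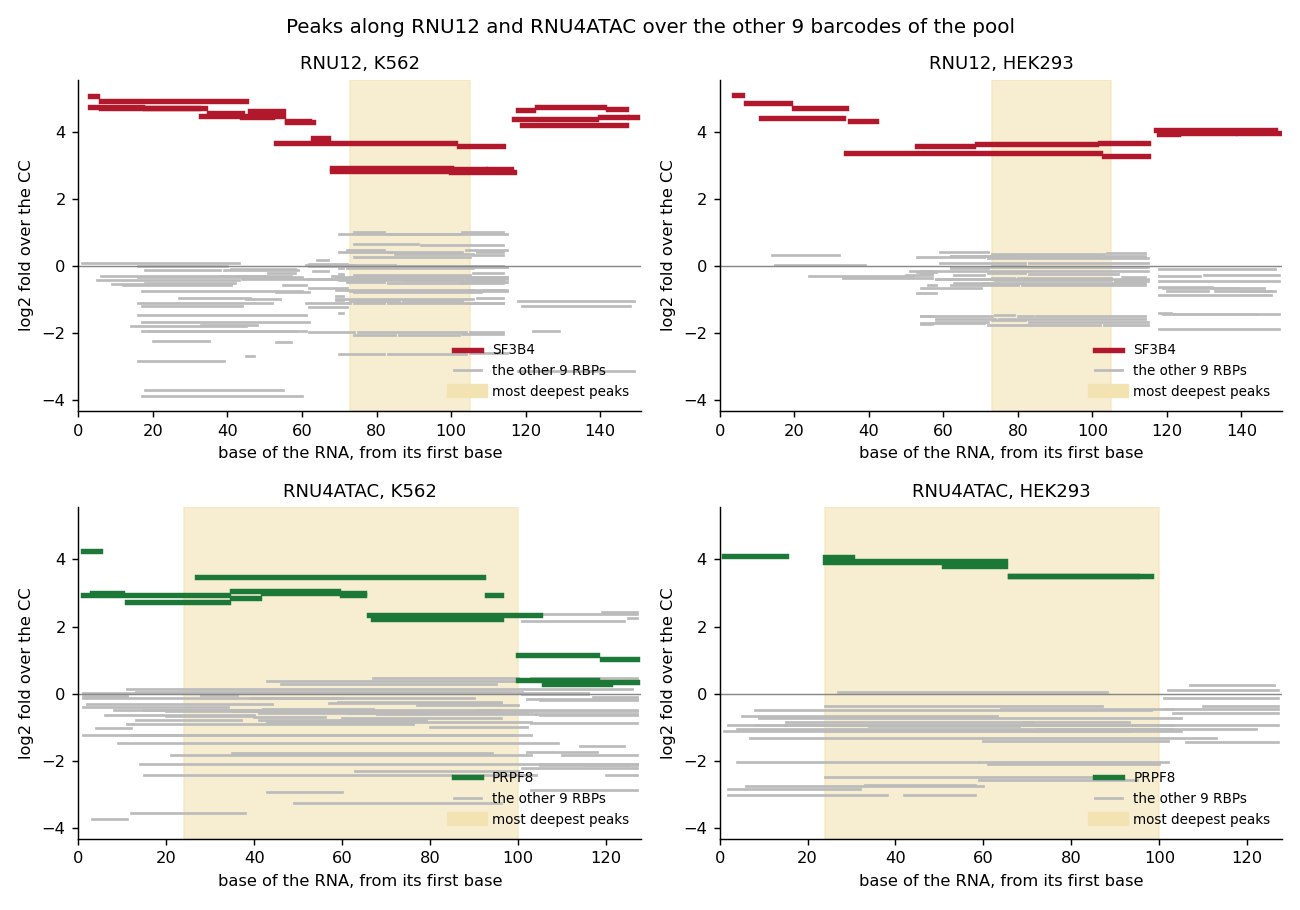
Log2 fold over the CC of each peak along U12 for SF3B4 and along U4atac for PRPF8, against the base of the RNA, in the 10plex libraries. Each line is the extent of 1 peak, grey lines are the other 9 RBPs, and the shaded stretch marks the bases in most deepest peaks. SF3B4 on U12 is at 2.80 or above over the whole RNA, and PRPF8 on U4atac falls to 0.30 to 1.15 after base 100 in K562.

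At the 3′ end of U4atac in K562, RBFOX2, an RBP of intronic GCAUG sites, had peaks above the CC in all 3 pools. The peak at bases 119 to 134 of replicate 1 had a log2 fold of 2.42, the peaks from base 101 of replicate 2 had 2.17 and 2.27, and the peak from base 101 of replicate 3 had 2.38. These peaks run past the last base of the gene, which is base 127. The peak at bases 102 to 118 of replicate 1 had -1.73, with a direction that the deposited statistic does not give and that was taken from the reads of the other libraries. In HEK293 the RBFOX2 peaks there had -0.56 and -0.45. Over the rest of U4atac, RBFOX2 had -1.02 to 0.47 in K562. These peaks were chosen after their values were seen.

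The SLBP libraries are a description. RNU12 had 871 reads in SLBP replicate 1, or 101.2 per 10000, and 223 reads in replicate 2, or 112.9 per 10000. These reads, and those of RNU11 in replicate 1, lie at the cap of P, where only the lowest whole numbers that give the fold are known, so the true counts may be higher and the shares may be off. RNU12 ranked 7 of 2063 genes in replicate 1 and 4 of 837 in replicate 2, beside the histone genes H1-2, H3C2, H2BC4 and H4C8, ACSL3 and RMRP, the RNA of RNase MRP. RNU11 followed at ranks 15 and 14, with 461 and 121 reads (53.57 and 61.26 per 10000). RNU4ATAC had 28 and 8 reads, at ranks 100 and 106, and RNU6ATAC had 24 reads at rank 106 in replicate 1 and no peak in replicate 2. All 14 SLBP peaks on the 4 genes were enriched over the external background, against 55.3% of all SLBP peaks. No CC was used for these libraries. In the K562 10plex libraries RNU12 ranked 1 to 19.

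With these reads, the SLBP share on RNU12 lay within the range of the K562 10plex RBPs that are not SF3B4, which was 5.292 to 146.2, and the share on RNU11 lay below the 85.88 to 120.8 of LIN28B and above all other libraries of the K562 pools. The SLBP libraries held only 4445 and 1743 peaks, so their shares may be too high beside those of deeper libraries. The deepest SLBP peaks covered bases 80 to 115 and 71 to 115 of U12 and bases 84 to 117 and 78 to 117 of U11, over the same stretches as in the K562 pools. In the singleplex RBFOX2 libraries, RNU12 had 4.44 and 4.887 reads per 10000, RNU11 3.674 and 2.727, RNU4ATAC 0.3307 and 0.4484, and RNU6ATAC 0.3081 and 0.5491. All of these were below the RBFOX2 libraries of the HEK293 pools, where the shares were 9.592 to 13.9 on RNU12 and 6.003 to 8.317 on RNU11. Singleplex and 10plex are separate experiments, and the difference was not tested.

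The major spliceosome offers the counterparts U1, U2, U4 and U6, but the authors set aside reads of repetitive elements before alignment to the genome, so their levels cannot be set against those of the minor snRNAs. Of 29 listed other small noncoding RNAs, 21 had a peak in any library, among them 12 of 20 genes of the major spliceosome. Ordered by share among the 32 genes found in the annotation, RNU12 came first and RNU11 next in SF3B4 in both lines, and RNU11 came first in LIN28B in both lines. By the log2 fold over the CC, LIN28B was higher on VTRNA1-2 of the list, with means of 4.28 in K562 and 3.45 in HEK293. Its means on RNU11 were 2.90 and 2.82. In SLBP, RNU12 was next to RMRP (125.8 ± 8.158 reads per 10000, n = 2), with RNU11 after it, ahead of RPPH1 (44.37 ± 13.34), the RNA of RNase P, and RN7SK (27.39 ± 3.655).

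In PRPF8 the list member with the highest mean share was RNU5E-1, a U5 gene, with 101.9 ± 12.6 reads per 10000 in K562 (n = 3) and 60.51 ± 23.41 in HEK293 (n = 2). RNU5D-1 had 18.2 ± 1.724 and 30.83 ± 4.286 in PRPF8, and RNU4ATAC was at place 4 in K562 and at place 6 in HEK293. In K562 replicate 3, the only pool with a CC value for them here, PRPF8 had 2.55 on RNU5E-1 and 3.71 on RNU5D-1, beside 2.99 on RNU4ATAC. RN7SK, the RNA that holds the elongation factor P-TEFb inactive, had 9.068 ± 5.146 and 46.07 ± 50.8 in PRPF8, with a log2 fold over the CC of 0.04 in K562 replicate 3. The PRPF8 libraries of HEK293 were unlike on RN7SK, at 10.14 and 81.99, and in replicate 2 it was above RNU5E-1, at 43.96. RMRP and RPPH1 were near the CC in PRPF8, with means of 0.01 and -0.11 in K562. In SF3B4 the list members behind RNU12 and RNU11, by the mean over both lines, were RMRP (15.14 ± 3.485 in K562 and 35.11 ± 5.115 in HEK293), RNU5E-1 (22.2 ± 2.483 and 17.03 ± 1.449) and RN7SK (10.05 ± 4.794 and 24.69 ± 14.61). RNU2-2P, a gene of U2, the counterpart of U12, had 10.96 ± 7.351 in SF3B4 and 1.772 ± 0.4027 in PRPF8 in K562. Its log2 fold over the CC in K562 replicate 3 was 3.77 for SF3B4 and 0.11 for PRPF8.

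**Figure D4:**
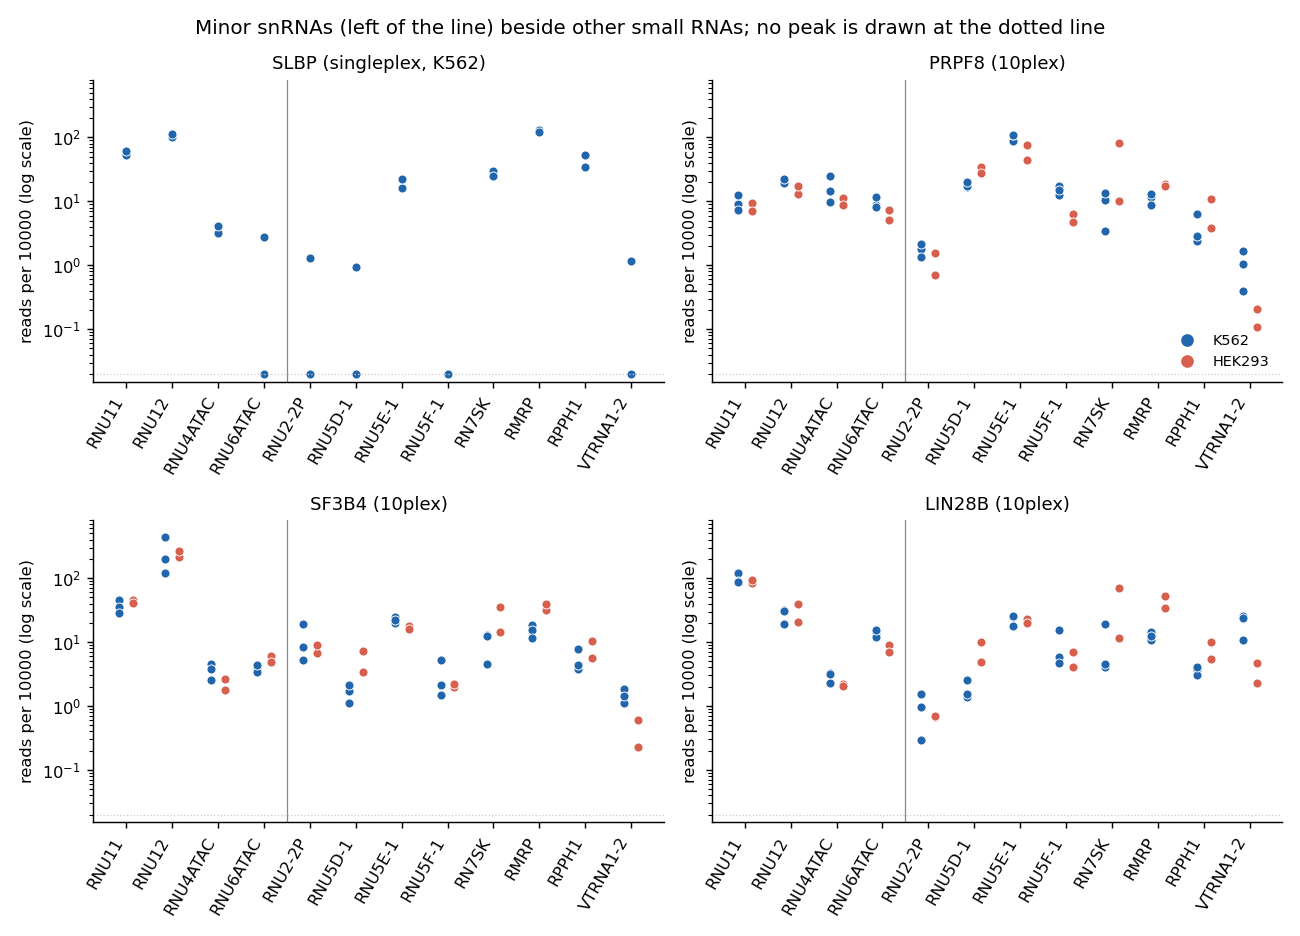
Read share (log axis) of the 4 minor snRNA genes beside 8 other small noncoding RNAs in SLBP, PRPF8, SF3B4 and LIN28B libraries. Points are libraries, and libraries with no peak are drawn at the dotted line. RNU12 leads in SF3B4, RNU11 in LIN28B, RNU5E-1 in PRPF8 by its mean share and RMRP in SLBP.

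The genes of 13 proteins linked to the minor spliceosome were the list of other minor spliceosome genes. For PRPF8, 7 of the 13 (ZCRB1, SNRNP25, SNRNP48, RNPC3, DHX15, CENATAC and SCNM1) had a peak enriched over the external background in all 3 K562 replicates, against 40.2% of all genes with a peak in the K562 pools. In HEK293 the number was also 7 (SNRNP35, SNRNP48, RNPC3, PDCD7, CENATAC, RBM48 and ZRSR2), against 42.5%. For SF3B4, 1 of 13 (DHX15, a helicase of spliceosome disassembly) was enriched in all K562 replicates, against 18.1%, and 5 (SNRNP48, RNPC3, DHX15, CENATAC and SCNM1) in both HEK293 replicates, against 25.4%. With 13 genes these numbers are near the backgrounds, and nothing is read from them.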

How the data were processed

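RNA bound by each RBP was sequenced in 54 ABC libraries. Per the labels and methods, the authors trimmed reads with cutadapt 2.8, set aside reads of repetitive elements, aligned the rest to GRCh38 with STAR 2.7.6, kept uniquely mapped reads, removed PCR duplicates by UMI and called peaks per library with CLIPper, giving the deposited CLIPper p-values and display scores. The deposited −log10 P values (at most 400) and log2 folds of merged peaks compare reads with RNA-seq or, in K562 replicate 3, with the CC. For the other pools the deposited text holds a chi-squared statistic against the CC, without peaks in repeats.

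Reads per peak were recovered from the fold, which was a ratio of whole numbers (tolerance 1e-09) in 100% of peaks. They equalled the reads in the peak names in 95.9% to 99.5% of peaks of each of the libraries that carry names, and at the cap of P in 43.8% to 100%. For peaks at the cap of P they were set from other peaks of the same background, or else as the lowest whole numbers. The latter holds for the SLBP libraries and the RBFOX2 library of HEK293 pool 2. CC reads were solved from the statistic, with the direction from the summed reads of the other 9 libraries. At the deepest peaks solved and summed reads had median ratios of 0.997 (RNU11), 1 (RNU12), 1.12 (RNU4ATAC, range 0.665 to 1.25) and 1 (RNU6ATAC). 2 peaks with uncertain reads were left out along the RNAs. Peaks hold 3 reads or more, and touching peaks can count a read in each.

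Peaks were assigned by at least 1 base of overlap on the gene's strand in GENCODE release 44 (the authors used release 35). PRPF8 and SF3B4 were each compared with the 8 other RBPs by exact permutation within pools. The pool served as the block because libraries of the same number come from the same tube. Scripts (Python 3.11.15, NumPy 2.4.6, SciPy 1.17.1) were tested on simulated data. Members and lists were chosen with earlier results of these data known. A further K562 marker of the list is not reported here. Named were the members, the 3 listed small RNAs with the highest share in SLBP, PRPF8 and SF3B4, copies of the members, the 3 genes most like each member, and listed protein genes enriched in all replicates. RNU2-2P, VTRNA1-2, LIN28B and RBFOX2 were singled out after their values were seen. The alternatives tried were summed reads, another denominator, ranks, the 9 other RBPs, no replicate block, a stricter overlap, other limits, the CC, either strand, CLIPper peaks and leaving out each replicate, and, chosen after seeing the data, the log2 fold over the CC as the value and the lowest whole numbers at the cap.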

Additional observations from a re-analysis of the deposited data

Results flagged for a closer look

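By its deepest peaks, IGF2BP2, an RBP of mRNA coding and 3′ regions, was on opposite sides of the CC on RNU12 in the 2 cell lines. Its log2 fold over the CC was -0.75 to -0.27 in the 3 K562 libraries (mean -0.47) and 0.26 to 0.37 in the 2 HEK293 libraries (mean 0.31), a difference of 0.79 with HEK293 higher. By the deepest peak, all libraries of K562 lay below the CC and all of HEK293 above it, and the difference was not tested. Over all IGF2BP2 peaks on RNU12, 6 of 8 in HEK293 lay above the CC, with a range of -0.55 to 0.43, and 0 of 9 in K562. The IGF2BP2 read share was 38.7 ± 11.33 reads per 10000 (SD, n = 3) in K562 and 33.73 ± 2.454 (n = 2) in HEK293, where the ranges of 28.04 to 50.59 and 32 to 35.47 overlap. RBFOX2, which is in the CC of IGF2BP2, went from 45.72 ± 20.47 to 11.75 ± 3.049 on RNU12, and its part in the result was not tested. Its reads in HEK293 replicate 2 are the lowest whole numbers at the cap of P and may be too low.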

How the results depend on the processing

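Of 168 values of the 16 read share comparisons under 11 other settings, 156 kept direction and side of the threshold. Without either pool, SF3B4 on RNU12 in HEK293 gave differences of 191 to 227.5 and PRPF8 on RNU4ATAC in HEK293 6.342 to 8.473, both with p = 0.111, the smallest that 1 pool allows in the exact permutation test. SF3B4 on RNU4ATAC in HEK293, which did not pass, went from -0.6943 to 0.01778. With reads summed over all peaks, PRPF8 on RNU6ATAC in K562 passed at 12.63 (exact permutation, p = 0.0137). With the log2 fold over the CC as the value, PRPF8 on RNU6ATAC passed at 2.623 in K562 and 2.818 in HEK293. On that scale 4 differences changed sign without passing either way: PRPF8 on RNU12 in HEK293 (0.02986) and SF3B4 on RNU4ATAC in K562 (0.3249) and HEK293 (0.2378) and on RNU6ATAC in K562 (0.6149). The cause was not tested. With no replicate block, so that RBP labels were permuted over pools, no call changed: SF3B4 on RNU12 kept its differences of 195.7 in K562 (exact permutation, p = 0.00103) and 209.3 in HEK293 (p = 0.00654), and PRPF8 on RNU4ATAC of 11 (p = 0.00308) and 7.407 (p = 0.00654). By the CC in place of the external background, the libraries with an enriched peak fell from 30 to 3 (RNU11), 3 (RNU12), 2 (RNU4ATAC) and 0 (RNU6ATAC) in K562 and from 20 to 2, 2, 2 and 0 in HEK293. The CLIPper peak of lowest p moved the median middle on U11 to base 76 for PRPF8 and base 77.5 for SF3B4, where the lowest p was tied between peaks in 20 of the 50 libraries. Of 94 ranks under 2 other orders, 17 moved. PUM2 and EIF3G values rest on the fewest reads.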

Other observations

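Across the 50 10plex libraries, the genes whose log2(read share + 0.1) followed each member most closely were mostly other small RNAs. The libraries share pools and depth, so the Pearson r is a description. Among 12029 genes, RNU4ATAC was most like RNU5E-1 (r = 0.93), RNU5E-6P (0.90) and HSP90B1 (0.84). RNU12 was most like SNORD83A (0.90), SNORD53 (0.88) and GAS5 (0.88). RNU11 was most like RPL18 (0.80), SNORD41 (0.79) and RNU6ATAC (0.76), and RNU6ATAC was most like NCL, RNU5E-1 and RNU11 (0.76 each). Between members, r was 0.60 for RNU11 and RNU12, 0.73 for RNU4ATAC and RNU6ATAC and 0.35 for RNU11 and RNU4ATAC.

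The copies of the members elsewhere in the genome had few reads in these libraries of uniquely mapped reads. A peak was found on 1 of 5 annotated RNU11 copies, the 1 RNU12 copy, 2 of 17 RNU4ATAC copies and 7 of 41 RNU6ATAC copies. The most reads in any library were 3 on RNU11-6P, 4 on RNU12-2P, 15 on RNU4ATAC18P and 32 on RNU6ATAC35P. On the opposite strand of the members, 1 peak was found, on RNU4ATAC in RBFOX2 singleplex replicate 2 (3 reads, 0.63 on the log2 scale against RNA-seq, not enriched).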
